A study of Mus musculus with 8 samples.

Results

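Aminoacyl-tRNA synthetases join each amino acid to its transfer RNA. The genes described here are 10 cytosolic synthetases: Aars, Cars, Eprs, Gars, Iars, Lars, Nars, Sars, Tars and Wars. They were chosen by name, with earlier results of these data known. Every probe set whose array annotation named a member alone was kept, under the older or the newer symbol. That gave 12 probe sets for the 10 genes, out of 12422 probe sets tested and 8251 genes covered. Wars had 3 probe sets and each of the other members had 1.

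The data were 8 oligonucleotide arrays of mouse liver RNA, with 2 arrays in each of 4 groups. The groups were AP20187-treated Atf4-/-, AP20187-treated Atf4+/+, untreated Atf4-/- and untreated Atf4+/+ livers. All mice carried the low-expressing Ttr::Fv2E-Perk transgene, controls included, and were siblings of a mixed FvB/n; Swiss Webster background. Fv2E-Perk fuses the stress kinase PERK to a domain that the drug AP20187 pairs up, and the Ttr promoter drives it in hepatocytes. The sample labels call the controls untreated, while the series title calls them mock-injected. The sources used here do not give age, dose or time after injection. Nothing in the labels states that paired arrays came from different mice, so the p-values describe how these samples vary, and that variation may be technical.

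PERK phosphorylates the translation factor eIF2, which lowers protein synthesis in general and raises translation of the transcription factor ATF4. ATF4 is known to bind composite C/EBP-ATF elements near genes for amino acid synthesis, amino acid transport and transfer RNA charging. Synthetases fall into class I and class II by the fold of the catalytic domain. Cars, Iars, Lars and Wars are class I, and Aars, Gars, Nars, Sars and Tars are class II. Eprs is a fusion of a class I glutamyl enzyme and a class II prolyl enzyme. Eprs, Iars and Lars belong to the multi-synthetase complex of the cytosol.

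Each value in the table was a linear ratio, for all 12 member probe sets with a median of at least 0.99 over the 8 arrays. A ratio of 1 is therefore the gene's own middle array, and the ratios carry no absolute level and no brightness. Levels of different genes cannot be compared. In whole liver, fewer cells of a type and less RNA per cell cannot be told apart.

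The genotype labels were read first from the 1 probe set for Atf4. Its ratios were 0.25 and 0.33 in AP20187 Atf4-/- livers, 4.17 and 5.75 in AP20187 Atf4+/+ livers, 0.29 and 1.67 in untreated livers labelled Atf4-/-, and 2.36 and 0.30 in untreated livers labelled Atf4+/+. The treated arrays stood on the side of their labels. Replicate 2 of untreated Atf4-/- and replicate 2 of untreated Atf4+/+ stood on the opposite side. For untreated Atf4-/- replicate 1 the description says Atf4+/+ and the source name Atf4-/-, and grouping followed the source name. Untreated Atf4+/+ replicate 1, unlike all other arrays, was grouped by its description. The sources used here do not say whether the probe set lies in the deleted part of the gene. Genotypes of untreated livers below are those of the labels. Results whose group differences use both doubted arrays, the untreated replicate 2 arrays, are also given without them. Those results still rest on untreated Atf4-/- replicate 1, whose own labels conflict.

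The promoters of the members are shown because the drug acts through a pathway whose factor binds near such genes. RefSeq promoters on build GRCm38.p6 were given for 6 of the 10 members: Aars, Eprs, Gars, Iars, Sars and Tars. The 250 bases before the start were searched on both strands for TGATGNAA, the core of the composite C/EBP-ATF element. The core was found in 3 of these 6 genes (50%), against 1056 of 27025 genes in the table (3.91%). The 3 genes were Aars, Gars and Tars, and Eprs and Sars held no match. The stretches around the matches are given 5′ to 3′ on the strand of the gene, with the 8 matched bases in capitals. In each the core lies on the opposite strand, as TGATGCAA in Aars and Tars and as TGATGAAA in Gars. The Aars stretch is on the plus strand at chr8:111033674-111033793, the Gars stretch on the plus strand at chr6:55037915-55038000 and the Tars stretch on the minus strand at chr15:11399659-11399729.
Aars: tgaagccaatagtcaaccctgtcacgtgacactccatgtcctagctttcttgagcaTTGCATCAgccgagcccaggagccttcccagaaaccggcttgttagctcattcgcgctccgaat
Gars: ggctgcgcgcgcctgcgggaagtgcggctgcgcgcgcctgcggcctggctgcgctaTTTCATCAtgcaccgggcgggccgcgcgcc
Tars: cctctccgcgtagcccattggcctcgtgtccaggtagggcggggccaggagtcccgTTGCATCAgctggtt
Counted from the start, the first matched base is at -112 in Aars, -30 in Gars and -15 in Tars. The start is that of the promoter given. For Aars it lies inside the annotated gene, which begins upstream of the stretch, at chr8:111027778. With the 50 bases after the start included, 4 of 6 members (66.7%) held the core, Iars being the added gene, against 4.51% of all genes. A match is a run of letters and no measure of binding.

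With AP20187 in Atf4+/+ livers, 8 of the 10 synthetases had both treated arrays above both untreated arrays, against 16.7% of all probe sets. For 7 of these 8 the difference was 1.92-fold to 2.24-fold on the log2(ratio + 0.1) scale. The eighth, Cars, differed by 1.94 on the log2 scale, by 0.78 without untreated Atf4+/+ replicate 2 and by 3.10 without untreated Atf4+/+ replicate 1. Tars did not have both treated arrays above both untreated arrays, and neither did Wars by the probe set used. The other Wars probe sets did. In Atf4-/- livers Aars, Sars and Eprs still stood higher with AP20187 by a similar amount, and Gars, Lars, Nars and Cars differed far less or ran the other way. No member passed the adjusted threshold of 0.05 in any comparison. The values below are therefore measured differences, not calls.

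**Figure D1:**
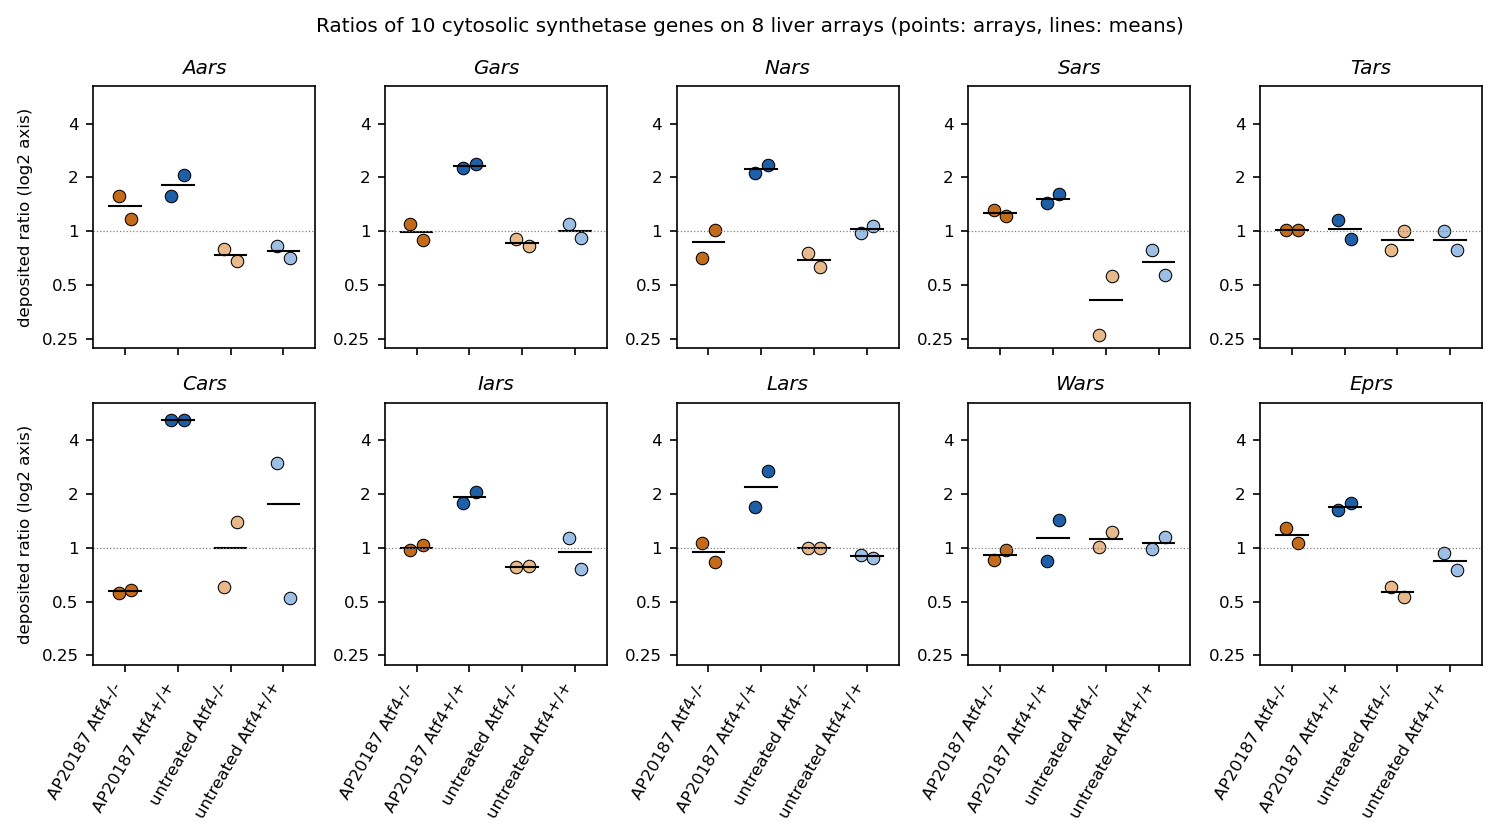
Deposited ratios of the 10 genes on the 8 arrays, on a log2 axis, with 1 point per array and a line at each group mean. From left to right the groups are AP20187 Atf4-/-, AP20187 Atf4+/+, untreated Atf4-/- and untreated Atf4+/+, and both AP20187 Atf4+/+ points lie above 1.4 for 8 of the 10 genes.

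Among the class II enzymes, Aars charges alanine. Aars had ratios of 1.58 and 1.17 in AP20187 Atf4-/- livers and 1.58 and 2.05 in AP20187 Atf4+/+ livers, against 0.79 and 0.68 in untreated Atf4-/- livers and 0.83 and 0.71 in untreated Atf4+/+ livers. All 4 treated arrays lay above all 4 untreated arrays, and the treated genotypes met at 1.58. The log2 difference, AP20187 minus untreated, was 0.81 ± 0.25 in Atf4-/- and 1.13 ± 0.25 in Atf4+/+ (SE, 2 against 2 arrays, limma adjusted p = 0.590 and 0.315). These differences, like those that follow, are of log2(ratio + 0.1), a scale that understates change at low ratios.

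Sars charges serine and also supplies the charged transfer RNA from which selenocysteine is made. Sars had ratios of 1.32 and 1.22 in AP20187 Atf4-/- livers and 1.43 and 1.61 in AP20187 Atf4+/+ livers, against 0.26 and 0.56 in untreated Atf4-/- livers and 0.78 and 0.57 in untreated Atf4+/+ livers. Again every treated array lay above every untreated array, and untreated Atf4-/- replicate 1 was the lowest of the 8. The log2 difference was 1.49 ± 0.33 in Atf4-/- and 1.07 ± 0.33 in Atf4+/+ (SE, 2 against 2 arrays, limma adjusted p = 0.446 and 0.454). The difference of Sars was larger in Atf4-/- livers by 0.42 ± 0.47, and by 1.05 ± 0.40 without both doubted arrays (SE, limma adjusted p = 0.945 and 0.811).

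Gars charges glycine in both the cytosol and mitochondria. Gars had ratios of 1.09 and 0.89 in AP20187 Atf4-/- livers and 2.27 and 2.39 in AP20187 Atf4+/+ livers, against 0.90 and 0.82 in untreated Atf4-/- livers and 1.10 and 0.91 in untreated Atf4+/+ livers. The AP20187 Atf4+/+ pair stood apart from the other 6 arrays, which lay within 0.82 and 1.10. On the log2 scale Gars differed by 0.18 ± 0.22 in Atf4-/- and 1.14 ± 0.22 in Atf4+/+ (SE, 2 against 2 arrays, limma adjusted p = 0.857 and 0.262). The value in Atf4+/+ had the lowest adjusted p of any member in that comparison.

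Nars charges asparagine, the amino acid made by the ATF4 target Asns. Nars had ratios of 0.71 and 1.02 in AP20187 Atf4-/- livers and 2.11 and 2.34 in AP20187 Atf4+/+ livers, against 0.75 and 0.63 in untreated Atf4-/- livers and 0.98 and 1.07 in untreated Atf4+/+ livers. As for Gars, the AP20187 Atf4+/+ pair lay above all others. Treated Atf4-/- arrays overlapped both untreated groups. AP20187 minus untreated for Nars was, on the log2 scale, 0.27 ± 0.24 in Atf4-/- and 1.05 ± 0.24 in Atf4+/+ (SE, 2 against 2 arrays, limma adjusted p = 0.807 and 0.338).

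Tars charges threonine. Tars had ratios of 1.01 and 1.01 in AP20187 Atf4-/- livers and 1.15 and 0.90 in AP20187 Atf4+/+ livers, against 0.78 and 1.0 in untreated Atf4-/- livers and 1.0 and 0.78 in untreated Atf4+/+ livers. Its 8 ratios spanned 1.47-fold, the narrowest range of the members, and the Atf4+/+ groups overlapped. The log2 difference was 0.17 ± 0.24 in Atf4-/- and 0.18 ± 0.24 in Atf4+/+ (SE, 2 against 2 arrays, limma adjusted p = 0.883 and 0.848). The 95% interval in Atf4+/+ ran from -0.40 to 0.77. Tars is one of the 3 genes whose upstream stretch, printed above, holds the core.

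Among the class I enzymes, Cars charges cysteine and had the widest range of any member, 10.1-fold. Cars had ratios of 0.56 and 0.58 in AP20187 Atf4-/- livers and 5.21 and 5.23 in AP20187 Atf4+/+ livers, against 0.60 and 1.4 in untreated Atf4-/- livers and 3.0 and 0.52 in untreated Atf4+/+ livers. The treated pairs were nearly equal within each genotype and far apart between genotypes, with means of 0.57 ± 0.0141 in AP20187 Atf4-/- livers and 5.22 ± 0.0141 in AP20187 Atf4+/+ livers (SD, n = 2 each). The untreated pairs split, by 1.10 in Atf4-/- and 2.32 in Atf4+/+ on the log2 scale.

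The high untreated arrays for Cars were the same arrays that were high for Atf4, namely untreated Atf4-/- replicate 2 and untreated Atf4+/+ replicate 1. The low ones, at 0.60 and 0.52, were untreated Atf4-/- replicate 1 and untreated Atf4+/+ replicate 2, which were low for Atf4 also. Gars, by contrast, showed no such split, with gaps of 0.12 in untreated Atf4-/- livers and 0.25 in untreated Atf4+/+ livers. The log2 difference of Cars between AP20187 and untreated was -0.61 ± 0.74 in Atf4-/- and 1.94 ± 0.74 in Atf4+/+ (SE, 2 against 2 arrays, limma adjusted p = 0.857 and 0.519). Leaving out both doubted arrays gave -0.06 ± 0.27 in Atf4-/- and 0.78 ± 0.27 in Atf4+/+ (SE, 2 against 1 arrays). A lone array is then assumed to vary like the paired ones. The arrays were doubted for their Atf4 ratios, which the untreated Cars ratios followed. These Cars values therefore follow from the choice of arrays and are no check.

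**Figure D2:**
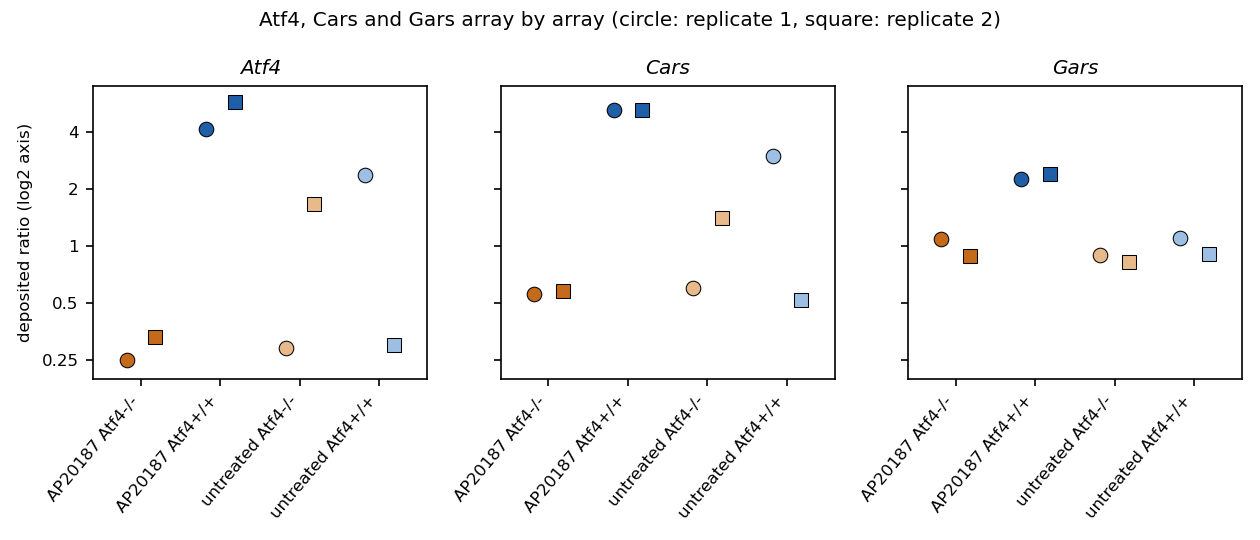
Deposited ratios of Atf4, Cars and Gars on each array, on a log2 axis, with circles for replicate 1 and squares for replicate 2 of each group. Atf4 and Cars are high on the same 4 arrays, including untreated Atf4-/- replicate 2 and untreated Atf4+/+ replicate 1, while Gars is above 2 only in the AP20187 Atf4+/+ arrays.

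Iars charges isoleucine as part of the multi-synthetase complex. Iars had ratios of 0.97 and 1.03 in AP20187 Atf4-/- livers and 1.78 and 2.05 in AP20187 Atf4+/+ livers, against 0.78 and 0.79 in untreated Atf4-/- livers and 1.14 and 0.76 in untreated Atf4+/+ livers. The AP20187 Atf4+/+ pair was highest, and the treated Atf4-/- pair lay a little above its untreated pair. AP20187 minus untreated for Iars was, on the log2 scale, 0.31 ± 0.25 in Atf4-/- and 0.96 ± 0.25 in Atf4+/+ (SE, 2 against 2 arrays, limma adjusted p = 0.786 and 0.376).

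Lars charges leucine and is known in human cells also as a leucine sensor for the growth kinase complex mTORC1. Lars had ratios of 1.06 and 0.83 in AP20187 Atf4-/- livers and 1.69 and 2.68 in AP20187 Atf4+/+ livers, against 1.0 and 1.0 in untreated Atf4-/- livers and 0.91 and 0.88 in untreated Atf4+/+ livers. The AP20187 Atf4+/+ pair lay above the other 6 arrays but 0.64 apart on the log2 scale. On the log2 scale Lars differed by -0.08 ± 0.27 in Atf4-/- and 1.16 ± 0.27 in Atf4+/+ (SE, 2 against 2 arrays, limma adjusted p = 0.962 and 0.338).

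Eprs, the fusion enzyme for glutamate and proline, is known in human cells also as a subunit of an interferon-induced complex that blocks translation. Eprs had ratios of 1.29 and 1.07 in AP20187 Atf4-/- livers and 1.62 and 1.78 in AP20187 Atf4+/+ livers, against 0.60 and 0.53 in untreated Atf4-/- livers and 0.93 and 0.75 in untreated Atf4+/+ livers. All treated arrays lay above all untreated arrays, and in both treatments the Atf4-/- pair lay below the Atf4+/+ pair. The log2 difference was 0.94 ± 0.22 in Atf4-/- and 0.94 ± 0.22 in Atf4+/+ (SE, 2 against 2 arrays, limma adjusted p = 0.462 and 0.338). The 95% interval of the difference between these effects ran from -0.76 to 0.76.

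Wars charges tryptophan and is known as an interferon-gamma-induced gene. Its 3 probe sets disagreed, and the gene was represented by the only one with a plain probe set name. That one had ratios of 0.85 and 0.97 in AP20187 Atf4-/- livers and 0.84 and 1.43 in AP20187 Atf4+/+ livers, against 1.01 and 1.22 in untreated Atf4-/- livers and 0.99 and 1.15 in untreated Atf4+/+ livers. The AP20187 Atf4+/+ arrays held both its lowest and its highest value. Its log2 difference was -0.26 ± 0.29 in Atf4-/- and 0.04 ± 0.29 in Atf4+/+ (SE, 2 against 2 arrays, limma adjusted p = 0.845 and 0.978).

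A second Wars probe set, of the f type that can detect related transcripts, had ratios of 1.0 and 2.63 in AP20187 Atf4-/- livers and 2.42 and 2.90 in AP20187 Atf4+/+ livers, against 1.0 and 0.79 in untreated Atf4-/- livers and 0.74 and 0.82 in untreated Atf4+/+ livers. Here the AP20187 Atf4+/+ pair was clearly higher than both untreated pairs, and the treated Atf4-/- pair split. Its log2 difference was 0.81 ± 0.43 in Atf4-/- and 1.65 ± 0.43 in Atf4+/+ (SE, limma adjusted p = 0.715 and 0.381).

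The remaining Wars probe set, of the s type shared by several transcripts, had ratios of 1.07 and 1.04 in AP20187 Atf4-/- livers and 0.99 and 1.15 in AP20187 Atf4+/+ livers, against 1.01 and 0.76 in untreated Atf4-/- livers and 0.59 and 0.71 in untreated Atf4+/+ livers. Its values were higher with AP20187 in both genotypes, without overlap. The log2 difference was 0.24 ± 0.23 in Atf4-/- and 0.64 ± 0.23 in Atf4+/+ (SE, limma adjusted p = 0.818 and 0.507). With the mean of the 3 probe sets, Wars stood at 0.26 ± 0.26 in Atf4-/- and 0.78 ± 0.26 in Atf4+/+ (SE, limma adjusted p = 0.804 and 0.422). The Wars values therefore depend on the choice of probe set.

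**Figure D3:**
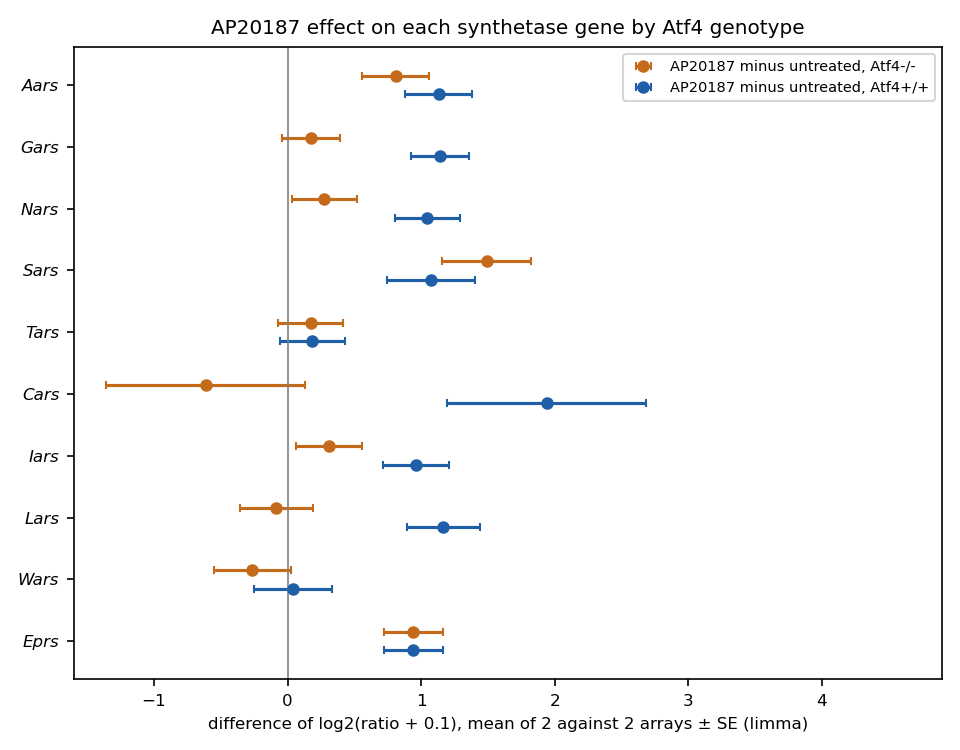
Log2 difference, AP20187 minus untreated, for each of the 10 genes, in Atf4-/- livers (upper point of each gene) and in Atf4+/+ livers (lower point), with SE bars from limma. Aars, Sars and Eprs lie to the right of 0 in both genotypes, and Gars, Nars, Cars, Iars and Lars lie further right in Atf4+/+ livers.

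The first comparison asked what AP20187 did in Atf4+/+ livers. Because the members were chosen with earlier results of these data known, counts and medians beside all probe sets are a description. All 10 genes had differences above 0, with a median of 1.06, against a median of -0.06 over all probe sets. Wars, at 0.04, crossed 0 in some settings. At an unadjusted limma p under 0.05, 8 of 10 members were higher, against 4.78% of all probe sets. Both treated arrays lay above both untreated arrays in 8 of 10 members, against 16.7% of all probe sets. Both lay above all other 6 arrays in 7 of 10, namely Cars, Gars, Nars, Lars, Sars, Eprs and Iars, against 5.55%. None of the 10 passed limma's adjusted threshold, which 0.00805% of all probe sets passed. Without both doubted arrays the members' median was 0.84.

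AP20187 Atf4+/+ replicate 2 was the highest array for 9 of the 10 genes. The same array had the lowest log2 ratio of 5′ over 3′ probe sets for Actb, -0.64 against -0.19 to 0.14 on the other arrays. Gapdh hardly set the array apart, at -0.06 against -0.05 to 0.13 on the others. Such ratios are a sign of RNA quality, and here they only compare arrays with each other. The part of RNA quality in the members' values was not tested. Without this array the members' median in Atf4+/+ livers was 0.92.

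In Atf4-/- livers the members' median difference was 0.23, against -0.02 over all probe sets, with 7 above 0 and 3 below. The 3 below were Cars, Lars and Wars. At an unadjusted limma p under 0.05, 3 of 10 were higher (Aars, Sars and Eprs), against 4.27% of all probe sets. Treated arrays lay above untreated ones in 5 of 10 (Aars, Sars, Eprs, Tars and Iars), against 20.1%. For Tars this rests on 1.01 against 1.0, the smallest step of the rounded ratios. No member and 0.0% of all probe sets passed limma's adjusted threshold. Sars stood at 1.93, Eprs at 0.87 and Aars at 0.71 without both doubted arrays.

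The difference between the genotypes' responses was tested as its own contrast, the AP20187 effect in Atf4-/- minus that in Atf4+/+. It was below 0 for 9 of 10 members, with a median of -0.48 against 0.04 over all probe sets. For Tars and Eprs it was -0.01 and -0.0011, and the signs of Eprs, Sars, Tars and Wars changed in at least 1 other setting. At an unadjusted limma p under 0.05, 3 of 10 members were lower, against 2.73% of all probe sets. These were Lars at -1.25 ± 0.39, Gars at -0.96 ± 0.31 and Cars at -2.55 ± 1.05 (SE, limma adjusted p = 0.901, 0.901 and 0.912). The 95% intervals ran from -2.18 to -0.31 for Lars, from -1.70 to -0.22 for Gars and from -5.09 to -0.02 for Cars. Nars and Iars stood at -0.77 ± 0.34 and -0.65 ± 0.35 (SE, limma adjusted p = 0.931 and 0.945).

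No member and 0.0% of all probe sets passed limma's adjusted threshold for this difference. Without both doubted arrays Lars stood at -1.23 ± 0.56, Gars at -0.90 ± 0.41 and Cars at -0.84 ± 0.38 (SE, limma adjusted p = 0.870, 0.870 and 0.868), and no member had an unadjusted p under 0.05. For Cars this value follows from the choice of arrays and is no check. Nars stood at -0.94, Iars at -0.38, Aars at -0.32 and Wars at -0.28. Above 0 were Sars at 1.05 ± 0.40, Tars at 0.31 ± 0.43 and Eprs at 0.06 ± 0.42 (SE, limma adjusted p = 0.811, 0.971 and 0.993). The members' median was then -0.35, with 7 of 10 below 0.

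The treated livers could be compared between genotypes without the doubted arrays. All 10 members were lower in AP20187 Atf4-/- than in AP20187 Atf4+/+ livers, with a median of -0.68 against 0.04 over all probe sets. Tars differed by -0.01, and it and Wars changed sign when 1 AP20187 Atf4+/+ array was left out, Tars to 0.15 without replicate 1 and Wars to 0.10 without replicate 2. At an unadjusted limma p under 0.05, 5 of 10 were lower (Cars, Gars, Nars, Lars and Iars), against 2.78% of all probe sets. Groups did not overlap in 7 of 10, these 5 with Sars and Eprs, against 15.3%. Cars differed by -2.99 ± 0.74, Nars by -1.29 ± 0.24, Gars by -1.16 ± 0.22, Lars by -1.10 ± 0.27 and Iars by -0.87 ± 0.25 (SE, limma adjusted p = 0.648, 0.481, 0.481, 0.648 and 0.779). Aars, Sars and Eprs differed by -0.38, -0.24 and -0.50. No member and 0.0% of all probe sets passed limma's adjusted threshold. This contrast and the effect in Atf4+/+ share the AP20187 Atf4+/+ arrays.

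In untreated livers the members' median difference between the genotypes as labelled, Atf4-/- minus Atf4+/+, was -0.21, against -0.01 over all probe sets. The largest difference was that of Sars, -0.66 ± 0.33 (SE, limma adjusted p = 0.952). No member was lower at an unadjusted limma p under 0.05, against 2.56% of all probe sets, and no member and 0.0% of all probe sets passed the adjusted threshold. The Atf4-/- arrays lay below the Atf4+/+ arrays without overlap in 4 of 10 members (Gars, Nars, Sars and Eprs), against 16.4% of all probe sets. Leaving out both doubted arrays leaves 1 array against 1. Cars then stood at -2.15 in place of -0.44 ± 0.74 (SE, limma adjusted p = 0.999). The arrays were doubted for their Atf4 ratios, which the untreated Cars ratios followed. This shift of Cars therefore follows from the choice of arrays and is no check. Sars stood at -1.29 in place of -0.66 ± 0.33 (SE, limma adjusted p = 0.952).

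Averaged over genotypes, the AP20187 effect set 4 treated against 4 untreated arrays. The median was 0.66 against -0.04 over all probe sets, and 7 of 10 members were higher at an unadjusted limma p under 0.05, against 6.16% of all probe sets. All 4 treated arrays lay above all 4 untreated arrays in 3 of 10 members (Aars, Sars and Eprs), against 4.19%. These stood at 0.97 ± 0.18, 1.28 ± 0.23 and 0.94 ± 0.16 (SE, 4 against 4 arrays, limma adjusted p = 0.195, 0.195 and 0.159). None of the members passed the adjusted threshold, which 0.0403% of all probe sets did. Without both doubted arrays the median was 0.55. Cars then stood at 0.36 in place of 0.66, a shift that follows from the choice of arrays and is no check.

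Other synthetases served as neighbours in function. They are no unbiased reference, because members and lists were chosen with earlier results of these data known. Of 10 other cytosolic genes 9 were measured, and in Atf4+/+ livers 7 of 9 were above 0, with a median of 0.58. At an unadjusted limma p under 0.05, 3 of 9 were higher, against 4.78% of all probe sets. Mars, which charges methionine, stood at 0.68 ± 0.22, Rars, for arginine, at 0.68 ± 0.24, and Farsb, a subunit of the phenylalanine enzyme, at 0.64 ± 0.26 (SE, limma adjusted p = 0.478, 0.494 and 0.547). Vars, for valine, stood at 0.57 ± 0.24 (SE, limma adjusted p = 0.563). Including the members, 12 of the 19 measured cytosolic synthetases had both AP20187 Atf4+/+ arrays above the other 6 arrays, against 5.55% of all probe sets. In Atf4-/- livers the median of the 9 was 0.22. Of the 7 with a RefSeq promoter, 0 held the core in the 250 bases before the start, and 1 (14.3%) held it with the 50 bases after the start included.

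Mitochondrial synthetases charge transfer RNAs inside the organelle. Most are encoded by genes of their own, though the member Gars serves both the cytosol and mitochondria. Of 17 genes 5 were measured, and 1 of 5 was above 0 in Atf4+/+ livers, with a median of -0.05. Fars2, for phenylalanine, stood at -0.66 ± 0.26, Iars2 at -0.41 ± 0.21 and Rars2 at 0.41 ± 0.25 (SE, limma adjusted p = 0.532, 0.619 and 0.662). In Atf4-/- livers the median of the 5 was 0.01. Of the scaffold proteins that hold the multi-synthetase complex together, Aimp2 stood at 0.85 ± 0.34 and Aimp1 at 0.23 ± 0.24 in Atf4+/+ livers (SE, limma adjusted p = 0.526 and 0.797). The high Aimp2 value came from AP20187 Atf4+/+ replicate 2 at 2.14, against 1.09 in replicate 1.

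**Figure D4:**
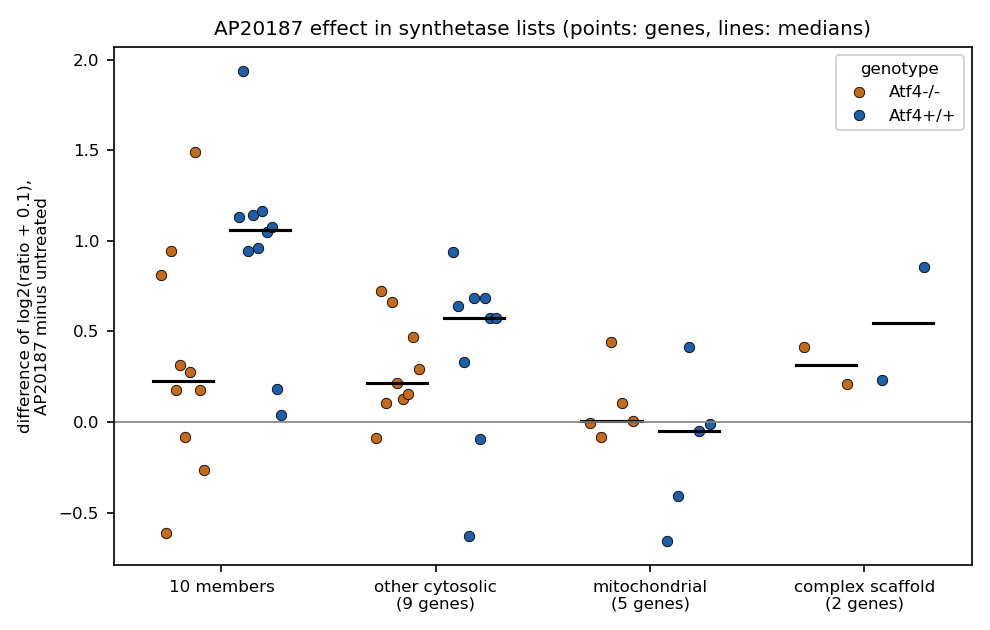
Log2 difference, AP20187 minus untreated, for each measured gene of the 10 members, the 9 other cytosolic synthetases, the 5 mitochondrial synthetases and the 2 complex scaffolds, in Atf4-/- livers (left) and Atf4+/+ livers (right). Lines are medians, which in Atf4+/+ livers were 1.06 for the members, 0.58 for the other cytosolic genes and -0.05 for the mitochondrial genes.

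Known ATF4 targets outside the synthetases gave larger values. Of 16 such genes, 13 were above 0 in Atf4-/- livers and 15 in Atf4+/+ livers, with medians of 0.69 in Atf4-/- and 1.71 in Atf4+/+. Mthfd2, a mitochondrial folate enzyme, stood at 0.54 ± 0.30 in Atf4-/- and 2.92 ± 0.30 in Atf4+/+ livers (SE, limma adjusted p = 0.720 and 0.0765). Another Mthfd2 probe set had the larger value in Atf4-/- livers. It stood at 2.23 ± 0.39 in Atf4-/- and 0.87 ± 0.39 in Atf4+/+ livers (SE, limma adjusted p = 0.320 and 0.574). The Mthfd2 values, like those of Wars, therefore depend on the choice of probe set. Psat1, of serine synthesis, stood at 1.23 ± 0.50 in Atf4-/- and 4.57 ± 0.50 in Atf4+/+ livers (SE, limma adjusted p = 0.667 and 0.0806). The stress factors Atf3 and Ddit3 were high in both genotypes, Atf3 at 3.13 ± 0.46 in Atf4-/- and 5.18 ± 0.46 in Atf4+/+ (SE, limma adjusted p = 0.238 and 0.0765). Ddit3 stood at 2.91 ± 0.48 in Atf4-/- and 4.18 ± 0.48 in Atf4+/+ (SE, limma adjusted p = 0.298 and 0.0806). Of 3 Atf3 probe sets, only the one used here passed the threshold in the effect averaged over genotypes, at 4.15 (limma adjusted p = 0.0370). Another stood at 3.68 and did not pass (limma adjusted p = 0.0569). Between these, the one used had the smaller SD within groups, 0.53 against 0.61 on the log2 scale. The remaining Atf3 probe set stood at -0.27 (limma adjusted p = 0.545). Whether Atf3 passed therefore depends on the choice of probe set.

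Interferon-induced genes were read because Wars and Eprs have known interferon roles. Of 14 measured, 7 were above 0 in Atf4+/+ livers, with a median of 0.22, and 4 were higher at an unadjusted limma p under 0.05, against 4.78% of all probe sets. These were Ifit2 at 0.78 ± 0.24, Cxcl10 at 1.71 ± 0.54, Cxcl9 at 1.24 ± 0.44 and Gbp2 at 0.92 ± 0.37 (SE, limma adjusted p = 0.449, 0.459, 0.506 and 0.540). In Atf4-/- livers the median was 0.12. The part of an interferon response in the Wars values was not tested.

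The genes with the array profile most like the members' mean were ranked by Pearson's r over the 8 arrays, among 6699 probe sets with an SD of at least 0.3. Outside the members these were Slc1a4 (0.980), Hspa9 (0.978), Pex14 (0.977), Wwtr1 (0.972), Krr1 (0.972), Ncl (0.970), Lonp1 (0.967) and Hmox2 (0.965). Slc1a4 imports neutral amino acids, Hspa9 and Lonp1 are a chaperone and a protease of mitochondria, and Ncl is a protein of the nucleolus. Slc1a4 had ratios of 1.11 and 0.96 in AP20187 Atf4-/- livers and 2.07 and 2.20 in AP20187 Atf4+/+ livers, against 0.74 and 0.99 in untreated Atf4-/- livers and 1.01 and 0.86 in untreated Atf4+/+ livers. This is the shape of Gars, with the AP20187 Atf4+/+ pair alone above 2. Atf4 itself had an r of 0.809. The profiles share arrays and the r values are a description.

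Markers of liver cells were read beside these results. Of 9 measured hepatocyte genes 3 were above 0 in the AP20187 effect in Atf4+/+ livers, with a median of -0.04, and all 9 were above 0 in AP20187 Atf4-/- minus AP20187 Atf4+/+ livers, with a median of 0.20. Their mean ratio was 1.08 to 1.10 in AP20187 Atf4-/-, 0.843 to 0.974 in AP20187 Atf4+/+, 1.0 to 1.13 in untreated Atf4-/- and 0.892 to 1.04 in untreated Atf4+/+ livers. Hepatocyte genes thus ran opposite to the members between treated genotypes. Medians of the AP20187 effect in Atf4+/+ livers were 0.10 for 8 macrophage genes, -0.32 for 5 endothelial, -0.17 for 5 stellate, -0.16 for 5 lymphocyte, 0.27 for 5 neutrophil and -0.25 for 3 bile duct genes. The part of cell composition in the members' values was not tested, and ratios do not show whether a marker is present.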

How the data were processed

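RNA was hybridised as biotin-labelled cRNA, per the labels' protocols. The values deposited by the authors are ratios on a linear scale, rounded to 0.01. For 85.8% of 12422 probe sets the ratio had a median of at least 0.99 over the arrays, and for the other 14.2% the divisor is unknown. The sources used here do not give summarisation or scaling. Leaving out 66 control probe sets, log2(ratio + 0.1) was fitted with 4 group means over all 8 arrays in limma 3.58.1 (R 4.3.3, statmod 1.5.0), with eBayes (4 residual and 2.37 prior degrees of freedom). Benjamini-Hochberg adjustment ran over all 12422 probe sets in each of 6 comparisons. The fit was tested on simulated data. Figures used Python 3.11.15 and matplotlib 3.10.9.

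A gene with several probe sets was represented by one with a median of at least 0.99, then a plain name, then the smallest spread within groups. The text names the members in each comparison, Atf4, up to 4 genes of each other synthetase, target or interferon list by smallest p in the Atf4+/+ effect, and the 8 genes most alike in profile. The members and lists were chosen with earlier results of these data known. The number of arrays limits precision, and signal over background is unknown in ratios. Alternatives were pseudocounts, scalings, a filter on the median, moderation, array weights, probe set choice, pooling the untreated arrays, a fit to the compared groups, leaving out each array and, chosen after seeing the data, leaving out both doubted arrays.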

Additional observations from a re-analysis of the deposited data

Results flagged for a closer look

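For Cars the AP20187 Atf4-/- arrays both lay below the untreated Atf4-/- arrays, while the AP20187 Atf4+/+ arrays both lay above the untreated Atf4+/+ arrays. The difference of the effects, Atf4-/- minus Atf4+/+, was -2.55 ± 1.05 on the log2 scale (SE, limma adjusted p = 0.912). Without both doubted untreated arrays it was -0.84, a shift that follows from the choice of arrays and is no check. The untreated Cars ratios followed those of Atf4 on the same arrays, and the part of the array labels in this difference was not tested.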

How the results depend on the processing

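No paired analysis was possible because the labels give no replicate numbers that groups share. No member passed the adjusted threshold in any of the settings run. The members' median effect in Atf4+/+ livers (1.06) was 0.81 with a pseudocount of 0.5, 0.63 with a pseudocount of 1 and 0.84 without both doubted arrays. It ranged from 0.84 to 1.21 when each array was left out, the lowest without untreated Atf4+/+ replicate 2. The median difference of effects (-0.48) was -0.32 with a pseudocount of 1, -0.68 with the untreated arrays pooled, where it equals the treated genotype comparison by construction and is no check, and -0.70 to -0.36 with each array left out, the first without AP20187 Atf4+/+ replicate 1. The median between treated genotypes (-0.68) was -0.43 with a pseudocount of 1. Between untreated genotypes (-0.21) it ranged from -0.39 without untreated Atf4+/+ replicate 2 to -0.0028 without untreated Atf4+/+ replicate 1. The median averaged effect (0.66) was 0.41 with a pseudocount of 1. A larger pseudocount shrinks log differences by construction, and the cause of the other shifts was not tested.

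Members with an unadjusted limma p under 0.05 numbered 2 to 3 in Atf4-/- and 6 to 9 in Atf4+/+ livers, 0 to 4 for the difference with pooling left aside, 4 to 6 between treated genotypes, 0 to 2 between untreated genotypes and 4 to 8 for the averaged effect. The difference gave 1 such member without untreated Atf4+/+ replicate 2, 1 without AP20187 Atf4-/- replicate 2 and 0 without both doubted arrays, against 3 with all arrays. Signs of single genes changed for Wars and Lars in Atf4-/-, for Wars in Atf4+/+ and in the averaged effect, for Tars and Wars between treated genotypes, for Eprs, Tars, Sars and Wars in the difference, and for Aars, Cars, Iars and Wars between untreated genotypes, where Tars was at 0. The counts of members in this section come without shares of all probe sets, which were computed for the main fit alone. With 2 arrays a group and the brightness unknown, the members' differences of about 2-fold did not pass the adjusted test.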
